A study of Rattus norvegicus with 2 samples.

Results

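The genes of S phase and DNA replication were followed in keratinocytes cultured from the epidermis of newborn rats; these cells form and renew the outer skin layer. The set was a list of 49 symbols grouped by function, from origin licensing to fork protection, and chosen with earlier results of these data known. Of these, 42 had a named probe set among the 15037 named genes of the array. Vitamin C was given to both cultures for 12 h, beginning 24 h after transfection. The siTet2/3 culture had been transfected with siRNAs against Tet2 and Tet3 at 1 µM each, and the control culture is labelled NC and control, and described as non-treated; whether it received another siRNA or the transfection reagent is not stated. Each group had 1 array, without replicates, so no test was possible and "higher" and "lower" below describe these arrays alone. An effect of vitamin C itself could not be read, since no culture without it was used here.

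DNA replication starts with licensing in G1, when the origin recognition complex, Cdc6 and Cdt1 load the ring of MCM2 to MCM7 on DNA. Cyclin E with CDK2 and the E2F transcription factors bring the cell into S phase. Cdc45 and the GINS complex then turn the ring into an active helicase. Polymerase alpha with primase lays the primers, and polymerases delta and epsilon copy the strands on the sliding clamp PCNA. In epidermis this happens in the basal layer, whose cells divide before they leave it and keratinise. Methylated cytosine in DNA is oxidised by TET enzymes, for which vitamin C acts as a cofactor.

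Values are the log2 signals that the authors deposited. They end at 19.93, higher than plain RMA usually gives, so the scale may hold a further, unstated step, and every fold below is one on the deposited scale. The background floor was 5.04 log2 units, the 95th percentile of 1206 chemoreceptor genes, taken over the higher of each gene's values as a gauge of background. None of Tet1, Tet2 and Tet3 had a named probe (0 of 3), so the size of the knockdown was not analysed here. Of 7 measured keratinocyte markers all 7 lay above the floor, between 12.68 and 18.86 log2 units on the siTet2/3 array and between 13.05 and 18.79 on the control array. Of the markers of other cells, 0 of 8 for fibroblasts and 1 of 5 for melanocytes (Mitf) passed it. So did 1 of 6 for immune cells (Cd68) and 1 of 5 for endothelium (Tek). Tek read 9.25 log2 units on the siTet2/3 array and 9.66 on the control array, while Mitf and Cd68 read between 5.24 and 5.52. Col1a1, Tyr, Ptprc and Pecam1 were among the markers below the floor on both arrays.

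Most replication genes differed little between the arrays, and the few that differed most were lower on the siTet2/3 array. Of the 42 measured genes, 40 lay above the floor, and all 40 did so on both arrays. At least 1.5-fold lower on the siTet2/3 array were 3 of the 40, the polymerase delta subunit gene Pold3, the clamp loader gene Rfc4 and the GINS gene Gins1, and 0 were at least 1.5-fold higher. That is 7.50% lower, where 13.2% of all 8103 named genes that passed the floor were lower and 8.63% were higher. Among the 7191 genes whose mean level lay in the range of the replication genes, 12.9% were lower and 7.38% higher. The share of replication genes past 1.5-fold was thus below that of the array as a whole in either direction, a comparison for which no test was made. In a culture, fewer cells in S phase and less RNA of these genes per cell cannot be told apart.

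The median difference of the 40 genes, siTet2/3 minus control, was -0.11 log2 units, against -0.05 for all named genes above the floor. Their interquartile range was -0.34 to 0.10, against -0.36 to 0.24 for all genes. Of the 40, 28 were below 0 (70%), against 55.0% of all genes. After each difference was centred on the median of all genes, 22 of the 40 were below 0 and 18 above. The signs of Orc1, Mcm2, Pola1, Rfc3, Exo1 and Rrm1 turned positive with that centring, so no direction is given for these 6. After centring, 11.1% of all genes were 1.5-fold lower and 10.4% higher, and of the replication genes 3 were lower and 1, Ccne1, was higher.

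**Figure D1:**
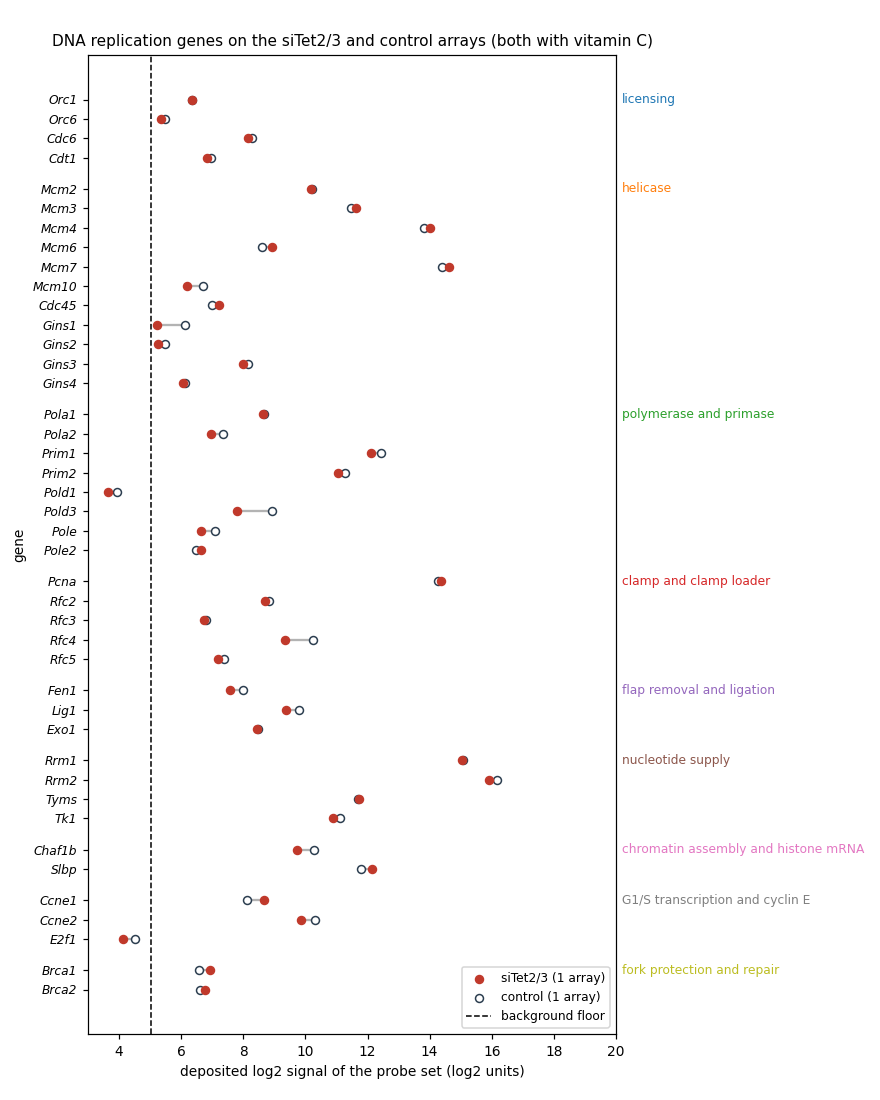
Deposited log2 signal (x axis, log2 units) of the 42 measured replication genes (rows, grouped by role), with filled points for the siTet2/3 array and open points for the control array. The dashed line is the background floor of 5.04, which Pold1 and E2f1 did not reach. Signals of different probe sets cannot be compared with each other. The longest gaps within a row are those of Pold3, Rfc4 and Gins1.

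**Figure D2:**
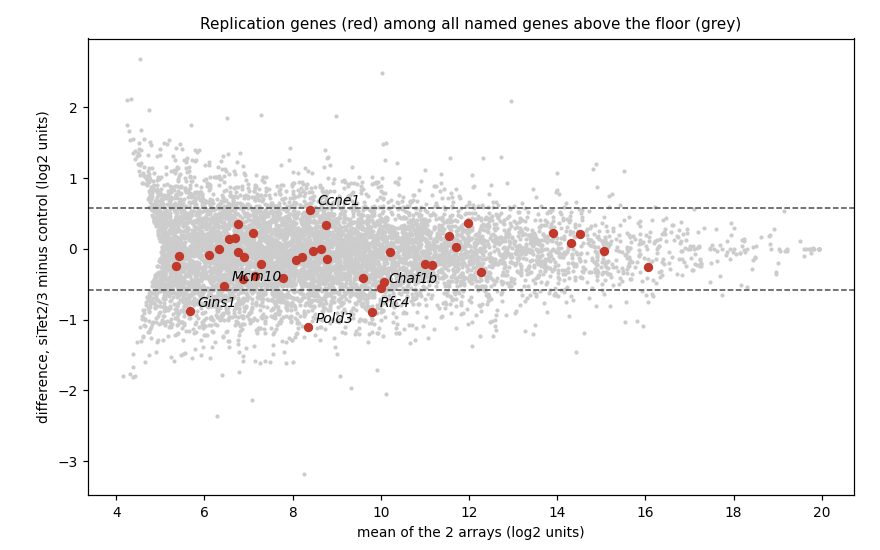
Difference, siTet2/3 minus control (y axis, log2 units), against the mean of both arrays (x axis, log2 units) for all 8103 named genes above the floor (grey) and the 40 replication genes (red). Dashed lines mark 1.5-fold. Of the red points 3 lie under the lower line and 0 above the upper line.

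The promoter windows of the genes past 1.5-fold are shown first. With them stand those of 2 MCM ring genes, picked for an E2F match and a difference above 0. They are shown because promoters of replication genes are textbook targets of E2F factors. Methylation at the CpG sites of these windows was not measured. Each window runs from 250 bases before to 50 after the gene start in the RefSeq annotation of GRCr8, 5′ to 3′ on the gene's strand. Capitals mark every match, on either strand, to an E2F motif, searched as TTTCCCGC, TTTCGCGC, TTTGCCGC or TTTGGCGC.
Pold3 (chr1:163868763-163869062, minus strand): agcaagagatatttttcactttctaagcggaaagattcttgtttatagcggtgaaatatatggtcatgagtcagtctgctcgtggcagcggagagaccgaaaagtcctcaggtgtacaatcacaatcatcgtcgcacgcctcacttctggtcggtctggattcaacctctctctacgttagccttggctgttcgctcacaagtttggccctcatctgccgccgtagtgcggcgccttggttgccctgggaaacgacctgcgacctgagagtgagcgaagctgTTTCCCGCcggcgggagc
Rfc4 (chr11:91254023-91254322, plus strand): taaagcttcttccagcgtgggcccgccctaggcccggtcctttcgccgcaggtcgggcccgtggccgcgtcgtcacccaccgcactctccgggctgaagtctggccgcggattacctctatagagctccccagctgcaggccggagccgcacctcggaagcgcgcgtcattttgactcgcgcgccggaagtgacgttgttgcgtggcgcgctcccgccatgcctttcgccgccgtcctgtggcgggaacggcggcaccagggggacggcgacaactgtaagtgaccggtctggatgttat
Gins1 (chr3:160184670-160184969, plus strand): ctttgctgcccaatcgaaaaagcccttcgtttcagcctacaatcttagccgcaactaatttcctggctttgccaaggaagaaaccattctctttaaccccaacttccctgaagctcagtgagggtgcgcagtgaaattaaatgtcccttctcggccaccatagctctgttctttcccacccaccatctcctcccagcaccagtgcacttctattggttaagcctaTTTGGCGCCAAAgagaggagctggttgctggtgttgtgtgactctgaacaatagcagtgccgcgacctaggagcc
Mcm6 (chr13:42404303-42404602, minus strand): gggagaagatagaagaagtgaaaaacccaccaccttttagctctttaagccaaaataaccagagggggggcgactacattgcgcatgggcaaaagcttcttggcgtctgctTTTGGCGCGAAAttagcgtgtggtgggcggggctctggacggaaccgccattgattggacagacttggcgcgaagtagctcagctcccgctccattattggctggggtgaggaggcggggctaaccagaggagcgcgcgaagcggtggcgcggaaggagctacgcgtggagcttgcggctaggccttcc
Mcm7 (chr12:22163129-22163428, minus strand): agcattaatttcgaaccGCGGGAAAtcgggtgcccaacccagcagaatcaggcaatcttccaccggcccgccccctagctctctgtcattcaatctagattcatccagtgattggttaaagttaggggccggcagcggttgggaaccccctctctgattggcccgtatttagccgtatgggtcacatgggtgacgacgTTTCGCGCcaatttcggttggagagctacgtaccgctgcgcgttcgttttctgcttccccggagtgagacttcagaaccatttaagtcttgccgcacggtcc
Pold3 has 1 match, inside the transcribed part of the window. Gins1 has 2 that overlap, since the run in capitals reads as the motif on both strands, and so does Mcm6, while the 2 of Mcm7 lie apart. Rfc4 has 0 matches in its window. The ring genes were picked because they hold a match, so these windows do not compare lower genes with the rest. The window of Ccne1, the gene with the highest difference (0.55), has 0 matches and is not printed.

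Of the 49 genes, 39 had a promoter in the table, and 18 of the 39 (46.2%) held at least 1 E2F motif. The share was 2.25% among all 27457 genes of the table and 4.39% among the 6839 named genes above the floor that had a promoter. The NF-Y motif CCAAT stood in 56.4% of the replication gene promoters, against 37.7% for all genes, and the CHR motif TTTGAA, known from promoters of mitotic genes, in 10.3%, against 18.1%. Restricted to the 34 replication genes above the floor, the shares were 44.1% for E2F, 50% for NF-Y and 11.8% for CHR, against 4.39%, 38.3% and 11.7% of the named genes above the floor. An E2F and an NF-Y match overlapped in 1 promoter. CpG sites numbered from 8 in Gins1 to 39 in Ccne1, and the median of 22 per window was the same as for the genes above the floor, against 7 over all genes of the table. Among the replication genes above the floor, the 15 with an E2F motif had a median difference of -0.04 log2 units and the 19 without had -0.21, with ranges that overlapped (-1.11 to 0.37 and -0.89 to 0.55). A match to these letters is a description of the sequence and not of binding.

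**Figure D3:**
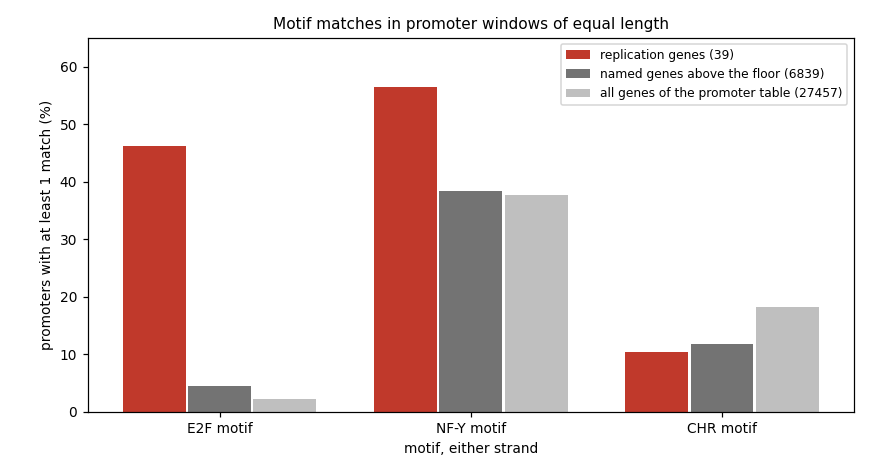
Share of promoter windows (y axis, %) with at least 1 match to the E2F, NF-Y or CHR motif (x axis), for 39 replication genes (red), 6839 named genes above the floor (dark grey) and all 27457 genes of the promoter table (light grey). The E2F bar of the replication genes stands at 46.2%, against 4.39% and 2.25%.

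The signals of the licensing genes were close to equal on the 2 arrays, but 0 of the 4 genes reached the negative-control level. That level, 8.31 log2 units, was one that 95% of the 1153 negative-control probes did not pass. At such signals, near-equal values do not show that expression was unchanged. Orc1, the ATPase subunit of the origin recognition complex, read 6.34 log2 units on the siTet2/3 array and 6.34 on the control array. Its partner Orc6 read 5.36 on the siTet2/3 array and 5.46 on the control array, near the floor. Cdc6, the loading ATPase that ORC recruits, read 8.16 on the siTet2/3 array and 8.28 on the control array, and Cdt1, which brings the MCM ring to the origin, 6.84 and 6.95. None of these 4 reached 1.5-fold, and their differences ran from -0.12 to 0.00 log2 units. The other ORC subunits, named here to complete the complex, gave 0.07 for Orc2, -0.48 for Orc3, 0.27 for Orc4 and -0.26 for Orc5. The gene of geminin, the inhibitor of Cdt1, Gmnn, differed by -0.16.

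In the MCM2 to MCM7 ring, the motor of the replicative helicase, 4 of 5 measured subunits were above 0 and none reached 1.5-fold. Mcm6 read 8.93 log2 units on the siTet2/3 array and 8.59 on the control array, a difference of 0.34. Mcm4 read 14.02 on the siTet2/3 array and 13.80 on the control array, and Mcm7 14.61 and 14.40, each 0.22 apart. Mcm3 read 11.64 on the siTet2/3 array and 11.45 on the control array. Mcm2 read 10.18 and 10.22, and Mcm5 had no named probe. The ring's subunits thus lay within 0.38 log2 units of each other in their differences, with a median of 0.22.

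The other helicase genes, whose products turn the loaded ring into an active helicase, had a median difference of -0.20 over 6 genes. They held the only helicase gene past 1.5-fold. Of these 6 genes 0 reached the negative-control level, against 5 of 5 measured ring genes, so the contrast with the ring is also one of dim against bright signals. Gins1, a subunit of the 4-part GINS complex, read 5.23 log2 units on the siTet2/3 array and 6.12 on the control array, which is 1.84-fold lower. Both values lay below 8.31 log2 units, the level that 95% of the 1153 negative-control probes did not pass. Its partners did not share a difference of that size. Gins2 read 5.24 on the siTet2/3 array and 5.48 on the control array, Gins3 7.999 and 8.15, and Gins4 6.06 and 6.14. Mcm10, which helps to activate the assembled helicase, read 6.19 on the siTet2/3 array and 6.71 on the control array, a difference of -0.52 that stopped short of 1.5-fold. Cdc45, the third component of the active helicase beside the ring and GINS, went the other way and read 7.22 on the siTet2/3 array and 6.998 on the control array.

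The polymerase and primase genes had a median difference of -0.32 log2 units over 7 genes. Of these 7, 1 was at least 1.5-fold lower. Pold3, which encodes an accessory subunit that ties polymerase delta to the clamp, read 7.80 log2 units on the siTet2/3 array and 8.91 on the control array. It was 2.15-fold lower, the largest difference of all 40 genes and the only one past 2-fold. Its value on the siTet2/3 array lay below the 8.31 log2 units of the negative-control probes and that on the control array above it. The catalytic subunit gene Pold1 lay below the floor on both arrays, at 3.65 on the siTet2/3 array and 3.94 on the control array, so nothing is said of its difference. Pold2, the other core subunit, differed by 0.07, and Pold4 lay below the floor as well. Within polymerase delta the difference was therefore that of 1 subunit out of the 2 that could be read.

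Polymerase epsilon, which copies the leading strand, had subunits on either side of 0. Its catalytic subunit gene Pole read 6.65 log2 units on the siTet2/3 array and 7.08 on the control array, and Pole2 read 6.63 and 6.49. Pole and Pole2 lay below the negative-control level on both arrays. The histone-fold subunit genes, named to complete the complex, gave -0.67 for Pole3, which is 1.59-fold lower, and -0.27 for Pole4.

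Polymerase alpha and primase lay the RNA and DNA primers. The catalytic Pola1 read 8.65 log2 units on both arrays. Its second subunit Pola2 read 6.96 on the siTet2/3 array and 7.34 on the control array. The primase genes Prim1, which encodes the catalytic subunit, and Prim2 read 12.12 and 11.04 on the siTet2/3 array, against 12.44 and 11.27 on the control array. None of these 4 reached 1.5-fold.

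The clamp gene Pcna read 14.36 log2 units on the siTet2/3 array and 14.27 on the control array, a difference of 0.09. The loader that opens the clamp has 5 subunits, and of these Rfc4 alone was past 1.5-fold. Rfc4 read 9.35 on the siTet2/3 array and 10.24 on the control array, which is 1.85-fold lower, and both values lay above the 8.31 log2 units of the negative-control probes. Rfc2 read 8.71 on the siTet2/3 array and 8.84 on the control array, Rfc3 6.74 and 6.79, and Rfc5 7.17 and 7.38. The large subunit Rfc1, named to complete the complex, differed by 0.23. Dscc1, of the alternative clamp loader, had no named probe, and its partners Chtf18 and Chtf8 differed by -0.47 and -0.04.

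Pold3, Rfc4 and Gins1 were singled out by their differences, so the gap to their partners is a description. The difference of Gins1 lay 0.64 log2 units below that of Gins2, the next in order, and that of Rfc4 lay 0.68 below that of Rfc5. The difference of Pold3 lay 1.17 below that of Pold2, its only partner above the floor. Each of the 3 genes was read by 1 probe set, and whether other transcripts of these genes behave alike was not tested.

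The flap and ligation genes, which finish the lagging strand, were Fen1, Lig1 and Exo1, with a median difference of -0.41 log2 units over 3 genes, the lowest of the 9 roles. The flap endonuclease gene Fen1, whose difference is the median of this role, read 7.56 log2 units on the siTet2/3 array and 7.98 on the control array. Both values of Fen1 lay below the 8.31 log2 units of the negative-control probes. The ligase gene Lig1 read 9.39 on the siTet2/3 array and 9.80 on the control array. Each of these differed by -0.41, or 1.33-fold, under the 1.5-fold limit. The exonuclease gene Exo1 read 8.45 and 8.47.

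Genes of nucleotide supply differed by at most 0.26 log2 units. Rrm2, the S phase subunit of ribonucleotide reductase, read 15.92 log2 units on the siTet2/3 array and 16.18 on the control array, and its large subunit Rrm1 15.04 and 15.07. Tyms, which encodes thymidylate synthase, read 11.72 on the siTet2/3 array and 11.70 on the control array. Tk1, the salvage kinase of thymidine, read 10.90 on the siTet2/3 array and 11.12 on the control array. All 4 lay above the level of the negative-control probes on both arrays, and none reached 1.5-fold.

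Of the chromatin genes that follow the fork, the 2 measured went opposite ways. Chaf1b, a subunit of the histone chaperone CAF-1, read 9.72 log2 units on the siTet2/3 array and 10.27 on the control array. Slbp, which encodes the protein that binds the stem-loop of histone mRNAs, read 12.15 on the siTet2/3 array and 11.78 on the control array. The difference of Chaf1b, -0.55, was the closest to the 1.5-fold limit on the lower side, and Chaf1a, the large subunit gene of CAF-1, had no named probe.

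The cyclin E genes also split. Ccne1 read 8.67 log2 units on the siTet2/3 array and 8.12 on the control array, a difference of 0.55, and it passed 1.5-fold only once the general difference or its trend on level was subtracted. Ccne2 read 9.85 on the siTet2/3 array and 10.31 on the control array, a difference of -0.46. E2f1, the activator of S phase genes, lay below the floor on both arrays, at 4.14 on the siTet2/3 array and 4.52 on the control array, and E2f2 and E2f8 had no named probe.

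Fork protection and repair was read by 2 genes, both above 0 in their differences and both below the negative-control level on both arrays. Brca1 read 6.94 log2 units on the siTet2/3 array and 6.59 on the control array, and Brca2 read 6.78 and 6.62. Both act in homologous recombination and guard stalled forks. Clspn and Dtl had no named probe.

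**Figure D4:**
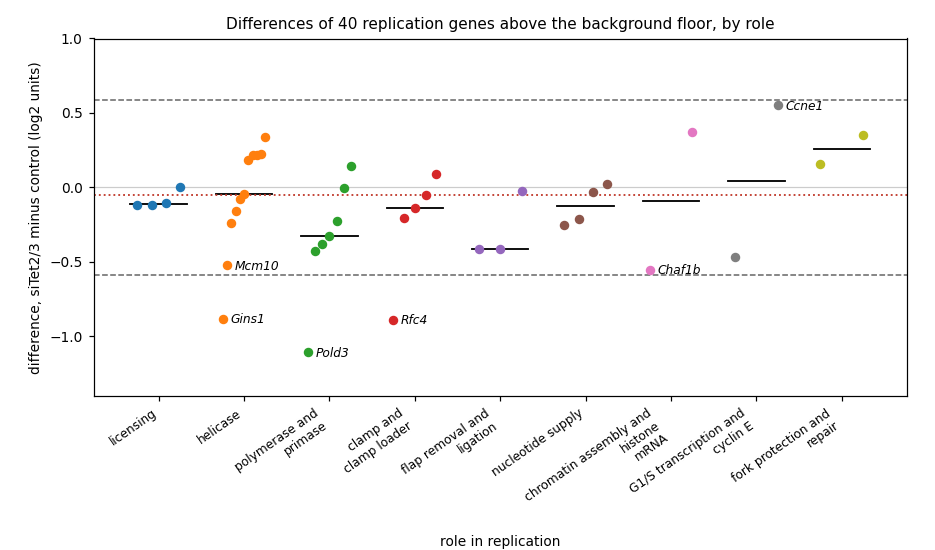
Difference, siTet2/3 minus control (y axis, log2 units), of the 40 replication genes above the floor, by role (x axis), with a black bar at each role's median. Dashed lines mark 1.5-fold and the red dotted line the median of all named genes, -0.05. Flap and ligation genes have a median of -0.41 and polymerase and primase genes one of -0.32, and genes of at least 0.5 log2 units in size are labelled.

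Of 45 other S phase genes that passed the floor, 7 read at least 1.5-fold lower on the siTet2/3 array (15.6%, against 13.2% of all genes) and 2 higher (4.44%, against 8.63%), with a median of -0.10, so the share of lower genes was near that of the array. Cdk2, the kinase that cyclin E activates, read 10.44 log2 units on the siTet2/3 array and 11.70 on the control array, which is 2.39-fold lower. The chromatin ATPase gene Atad2 read 9.00 on the siTet2/3 array and 10.02 on the control array, and Mcm8, a relative of the ring subunits, 5.95 and 6.95. Both values of Mcm8 lay below the 8.31 log2 units of the negative-control probes. Higher were Hells, a chromatin remodeller gene, at 10.26 on the siTet2/3 array and 9.56 on the control array, and Dbf4, the activator of the origin-firing kinase CDC7, at 11.34 and 10.70. The other lower genes were Pole3, Ccna2, Cdca7 and Ung, of which Cdca7 and Ung lay below the floor on the siTet2/3 array, with bounds of 1.40-fold and 1.30-fold. Ccna2 and Ung did not reach 1.5-fold after centring.

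Of 25 G1/S control genes that passed the floor, 7 read at least 1.5-fold lower (28%, against 13.2% of all genes) and 1 was higher (4%, against 8.63%), while the list's median was -0.0014. Lin54, a DNA-binding subunit of the complex that represses or activates cell cycle genes, read 7.90 log2 units on the siTet2/3 array and 9.11 on the control array, which is 2.31-fold lower. Mybl2, a transcription factor gene of the same pathway, read 9.82 on the siTet2/3 array and 11.00 on the control array, 2.27-fold lower. Cdk4, the kinase of cyclin D, read 12.69 on the siTet2/3 array and 13.84 on the control array, 2.22-fold lower. The higher gene was Cdkn2b, an inhibitor of CDK4 and CDK6, at 8.14 on the siTet2/3 array and 7.48 on the control array. Both values of Cdkn2b lay below the 8.31 log2 units of the negative-control probes. The other lower genes were the pocket protein gene Rbl2, the E2F repressor gene E2f7, the MuvB gene Lin37 and the CDK inhibitor gene Cdkn1a (p21), and they differed by -0.96, -0.92, -0.69 and -0.63, of which Cdkn1a did not reach 1.5-fold after centring. The lower genes thus held drivers of the cell cycle and inhibitors of it alike.

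Of 34 G2/M genes that passed the floor, 5 read at least 1.5-fold lower (14.7%, near the 13.2% of all genes) and 0 higher (against 8.63%), with a median of -0.05, the same to 2 decimals as that of all genes. The lower ones were led by the kinetochore gene Nuf2 (9.05 log2 units on the siTet2/3 array and 10.37 on the control array), the spindle gene Nusap1 (7.55 and 8.67) and the spindle gene Hmmr (9.34 and 9.99), which did not reach 1.5-fold once the trend on level was removed. Mki67, the proliferation marker, differed by 0.17.

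**Figure D5:**
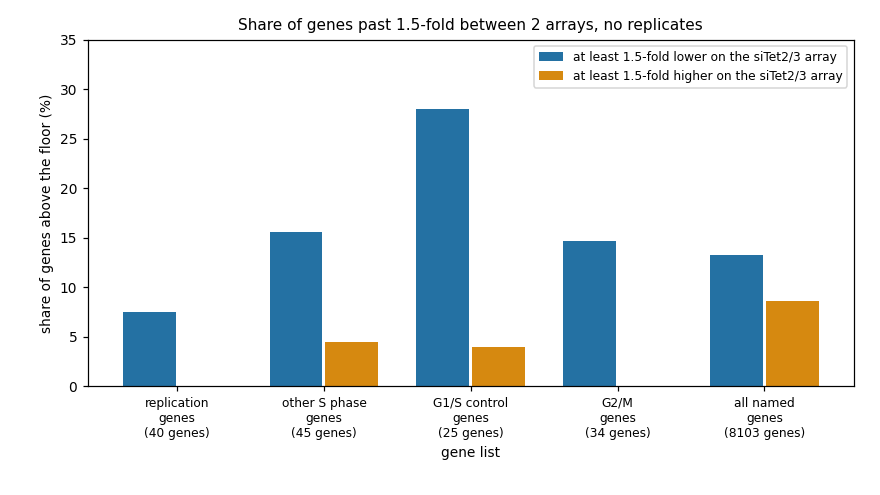
Share of genes above the floor (y axis, %) that were at least 1.5-fold lower (blue) or higher (orange) on the siTet2/3 array, for the replication genes, 3 lists of other cell cycle genes and all named genes (x axis). Replication genes stand at 7.50% lower and 0 higher, and all named genes at 13.2% and 8.63%.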

How the data were processed

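RNA of the 2 cultures was hybridised to 1 array each. The authors deposited log2 signals per probe set in a table with a column per array. Per the submitters' processing notes they used RMA and the Transcriptome Analysis Console; no version or setting is given there, and the probe annotation behind the table is not given in the sources used. The sorted deposited log2 values of the arrays differed by at most 0.151, so folds are relative to the bulk of genes. Of 23188 gene probes, 15049 had 1 symbol, 0 had several and 8139 had none and were left out; all 15037 genes were found in the RefSeq table of GRCr8.

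The difference siTet2/3 minus control was taken per gene, as the mean over probes. Counts are of genes with 1 or both values over the floor and a difference of 1.5-fold or more. With 1 array a group there was no test, and the number of arrays limits the precision. The code for the calls was run on simulated data with known differences put in, which checks the code and not the error between arrays. Every replication gene is named, and from each other list up to 3 genes past 1.5-fold in each direction; further genes were named after their values were seen. The members and lists were chosen with earlier results of these data known. Alternatives were other floors, values raised to the floor, centring, removal of a loess trend (limma 3.58.1, span 0.3), the brightest probe, a 2-fold limit and means. Promoter sequences are RefSeq's, and calculations used Python 3.11.15. There were 0 columns of unknown samples.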

Additional observations from a re-analysis of the deposited data

How the results depend on the processing

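The count of 3 lower replication genes became 1, Pold3, with the 2-fold limit and 2 with the floor from negative-control probes, and was 3 under the other alternatives. The count of higher ones was 0, and became 1 with centring and with removal of the trend on level, where Ccne1 stood at 0.61 and 0.62. The median of the replication genes was below 0 throughout and ran between -0.12 and -0.04, and their mean was -0.14. Medians of the other lists changed sign: that of the other S phase genes was 0.047 with the floor from negative-control probes, that of the G1/S control genes 0.052 with centring and 0.072 with the trend removed, and that of the G2/M genes 0.016 with the floor from negative-control probes, 0.0036 with centring and 0.0066 with the trend removed. The G2/M genes past 1.5-fold numbered 5 as reported, 3 with centring and 2 with the trend removed. The higher G1/S control genes numbered 1 as reported, 0 with the floor from negative-control probes, and 2 with centring or with the trend removed. The lower genes among the other S phase genes numbered 7 as reported and 4 with the floor from negative-control probes. These shifts follow from subtracting the general difference or from dropping dim genes. No paired analysis was possible because each group had 1 array, and leaving out an array was not possible for the same reason. Dim signal is a limit: 22 of the 42 measured genes reached the level of the negative-control probes on at least 1 array.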
